A study of Mus musculus with 2 samples.

Results

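The cells described here are dividing, granule-filled neutrophil precursors of mouse bone marrow. They were selected on their own transcript counts: a cell belonged when Ltf, Camp, Ngp, S100a8, S100a9 and Lcn2 together made up at least 2% of its UMIs (unique molecular identifiers, each standing for 1 captured transcript), when it held at least as many Ltf as Fcnb UMIs, and when Mki67 and Top2a together reached 3 UMIs. This rule took 3738 of 14068 kept cells, which came from 15710 deposited barcodes. They are called cycling Ltf-high cells below. The study placed cells carrying CD45.2 and Kit, sorted from bone marrow 10 weeks after transplantation, into a control library and a library labelled Utx-deleted, 1 of each, stained with barcoded antibodies. The alleles, the Cre driver, the number of donors or recipients and the age of the mice are not given in the labels used here. The comparison between the libraries asks how these cells differ when UTX, an H3K27 demethylase of the MLL3 and MLL4 complexes encoded by Kdm6a, is deleted.

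Neutrophils arise from granulocyte-monocyte progenitors through promyelocytes, myelocytes and metamyelocytes. Granule proteins are made in waves: azurophil granule proteases such as Elane and Mpo first, Fcnb at the passage to the next wave, then the specific granule proteins Ltf, Camp, Ngp and Lcn2, and last the gelatinase granule proteins Mmp8 and Mmp9 with chemotaxis receptors such as Cxcr2. Division stops during the specific granule wave, so cells with Ltf and mitotic transcripts together correspond to myelocyte-like stages. C/EBP-epsilon, encoded by Cebpe, drives the specific granule genes.

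The libraries held 7827 and 7883 barcodes with 122130256 and 129736034 gene UMIs, control first here and in every pair below. With 1 library a group there was no replicate and no test, so ratios are given with 95% intervals that cover counting error only. Each library carried 2 hashtags, antibody barcodes that mark cell suspensions. The labels do not say what the hashtags stand for. They are used to show the spread inside a library and in the rule for naming genes. The comparison of the libraries was also repeated within each hashtag number. Whether the same number marks matching suspensions in both libraries is not known. Barcodes holding both hashtags were dropped, 380 in the control and 699 in the Utx-deleted library, of which 254 and 503 met the other conditions. The libraries shared 17 barcodes, and 1 of these was a cycling Ltf-high cell in both. Among the cycling Ltf-high cells, Kdm6a had 2953 and 2550 UMIs, or 82.3 and 76.3 CPM (counts per 1e+06 UMIs), with 78.8 and 85.4 CPM in the control hashtags and 74.96 and 77.4 CPM in the Utx-deleted hashtags. Counts from the 3′ end do not check the loss of an internal exon, so the genotype stands as labelled and the direction of every ratio rests on that label.

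The label of immature neutrophils was compared with genes that the rule did not use. Cebpe stood at 476 and 518 CPM, against 53.5 and 60.4 CPM in granule-poor cells, the kept cells that fell outside the granule condition. Ly6g, a surface protein of maturing neutrophils, was at 217 and 388 CPM, between 8.77 and 8.68 CPM in cycling Fcnb-high cells (same rule, but fewer Ltf than Fcnb UMIs) and 802 and 990 CPM in Ltf-high cells without a Mki67 or Top2a UMI. Cd177, another neutrophil surface protein, was in the same order at 818 and 919 CPM, against 226 and 240 before and 1142 and 1248 after. Of the late genes, Retnlg was at 139 and 210 CPM, against 3934 and 4368 CPM in the Ltf-high cells without Mki67 or Top2a. Kit, the sorted receptor, was at 55.0 and 47.4 CPM, against 196 and 190 CPM in granule-poor cells and 27.5 and 20.6 CPM in the Ltf-high cells without Mki67 or Top2a. These markers describe a stage, with Kit transcript below that of the progenitors in the same sort.

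The control library held 2002 cycling Ltf-high cells, 28.2% of its kept cells (exact binomial 95% interval 27.2 to 29.3). The Utx-deleted library held 1736, or 24.9% (23.9 to 25.9). Among hashtags the shares were 29.6% and 27.2% in the control and 25.3% and 24.6% in the Utx-deleted library, so these values did not overlap between the libraries. The intervals of control hashtag 2 (25.8 to 28.7) and Utx-deleted hashtag 1 (23.9 to 26.9) did overlap. Of all Ltf-high cells, 38.3% (37.0 to 39.6) were cycling in the control and 32.5% (31.2 to 33.8) in the Utx-deleted library. Here the hashtag spread was wider, at 41.5% and 35.8% in the control and 31.6% and 33.5% in the Utx-deleted library. With each cell thinned to 4000 UMIs the shares of Ltf-high cells were 34.1% and 27.4%, and at 2000 UMIs 24.9% and 18.6%. The earlier stage was rare: cycling Fcnb-high cells made up 1.48% (105 cells) and 0.359% (25 cells) of kept cells. The difference in the share of kept cells, -3.30 percentage points, became -0.973 points with the barcodes of both hashtags kept, and that in the share of Ltf-high cells, -5.79 points, became -9.86 points in hashtag 1 alone and -2.37 points in hashtag 2 alone.

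**Figure D1:**
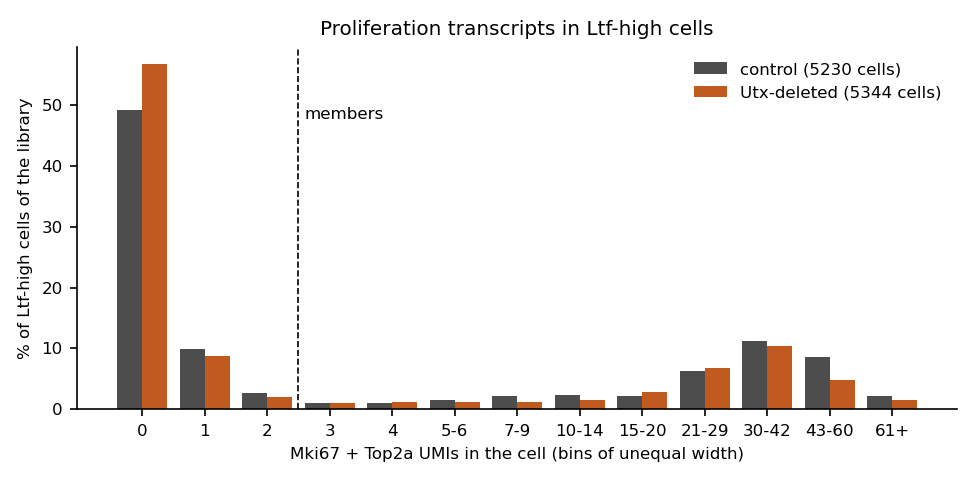
Percent of the Ltf-high cells of each library (vertical axis) by the summed Mki67 and Top2a UMIs of the cell (horizontal axis, bins of unequal width); the dashed line is the threshold of 3 UMIs. Most cells lie at 0 (49.3% and 56.8%) or far to the right, and few lie beside the threshold.

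The threshold on Mki67 and Top2a fell in a thin part of the distribution. Just outside it, 138 and 104 Ltf-high cells held 2 UMIs. Just inside, 55 and 57 cells held 3 UMIs and 52 and 58 held 4, while 1144 and 896 cells held 30 or more, as the plot of proliferation transcripts shows. For the granule condition, 10 and 11 cycling Ltf-high cells lay between 2% and 3%, and 14 and 6 cells that met the other conditions lay between 1% and 2%. For Ltf against Fcnb, 27 and 1 cells had an Ltf fraction of Ltf plus Fcnb UMIs of 0.5 to 0.6, and 16 and 3 cells lay outside at 0.4 to 0.5. A typical cell held 16537 and 16885 UMIs and 3841.5 and 3781 genes (medians), with 0.803% and 0.773% mitochondrial UMIs. The rule genes themselves are a description of the choice. Median UMIs per cell were 122 and 122 for Ltf, 916 and 993 for Camp, 460 and 507 for Ngp, 1047 and 1401 for S100a8, 1740 and 1948 for S100a9 and 185 and 178 for Lcn2. Fcnb had 9 and 5, Mki67 15 and 13 and Top2a 17 and 16. S100a8, a calprotectin subunit, stood at 61345 and 78110 CPM, with 61832 and 60894 in the control hashtags and 80200 and 76380 in the Utx-deleted hashtags, and its partner S100a9 at 101752 and 109095 CPM.

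Cell cycle genes outside the rule were higher than in the Ltf-high cells without Mki67 or Top2a and differed little between libraries. The choice of both populations on Mki67 and Top2a fixes part of the first contrast. The 44 mitosis genes without Mki67 and Top2a made up a median of 93.7 (quartiles 55.7 to 114) and 89.3 (55.1 to 111) of 10000 UMIs, against 3.92 and 2.95 in the Ltf-high cells without Mki67 or Top2a. DNA replication genes made up 19.9 (10.5 to 41.9) and 19.0 (9.82 to 37.0), against 2.57 and 1.86. Replication-dependent histone genes, expressed in S phase, made up 56.9 (7.62 to 92.2) and 63.2 (10.5 to 107), with the widest quartiles among these lists. The log2 ratio of mitosis to replication UMIs had medians of 2.21 and 2.16 in cycling Ltf-high cells, and -0.20 and -0.21 in the cycling Fcnb-high cells. Cells beside the threshold were unlike the bulk: at 3 UMIs of Mki67 plus Top2a the mitosis share was 16.7 and 19.3 of 10000, at 2 UMIs it was 12.001 and 10.6, and from 30 UMIs it was 102.7 and 95.8.

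None of 40 replication genes, 44 mitosis genes or 58 histone genes passed 2-fold between the libraries. The background is that 3.65% of all 10632 tested genes passed 2-fold in either direction, and the median over genes with at least 20 UMIs was -0.04 on the log2 scale. The replication genes had a median log2 ratio of -0.15, with 38 of 40 below 0, and -0.17 in each hashtag. Among them, E2f2, a cell cycle transcription factor, was at 134 and 87.5 CPM, Pcna, the sliding clamp, at 172 and 128.6 CPM, Tyms, which makes thymidylate, at 105 and 82.1 CPM and Rrm2, a ribonucleotide reductase subunit, at 275 and 258 CPM. The mitosis genes had a median of -0.05. Ube2c, which feeds ubiquitin to the anaphase-promoting complex, stood at 634 and 584 CPM, Kif11, a spindle motor, at 327 and 302 CPM, and Cdc25b, a mitotic entry phosphatase, at 20.04 and 28.5 CPM. The histone genes had a median of 0.22, with 43 of 58 above 0, and 0.37 and 0.10 in hashtags 1 and 2.

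As a description, cells were divided by the Ltf fraction of Ltf plus Fcnb UMIs, a quantity that the rule itself bounds from below. The fractions 0.5 to 0.8, 0.8 to 0.95 and 0.95 to 1 held 11.8%, 49.3% and 38.9% of the control cells and 3.28%, 36.0% and 60.7% of the Utx-deleted cells. Across these classes replication UMIs went from 38.2 to 30.2 to 19.8 of 10000 in the control and from 40.2 to 29.2 to 20.04 in the Utx-deleted library. With the 3 classes weighted equally, which gives the 57 Utx-deleted cells of the first class as much weight as each other class, the replication median was 0.05 in place of -0.15; the part of the class shares in that median was not tested otherwise. Mitosis UMIs were higher in later classes, going from 72.5 to 82.1 to 95.1 and from 58.3 to 75.1 to 86.5, with the Utx-deleted library lower in each class. Histone UMIs were 62.1, 60.8 and 48.2 in the control and 70.9, 71.6 and 58.0 in the Utx-deleted library, higher in each class. Ly6g was 63.3, 190 and 307 CPM in the control and 122, 340 and 432 CPM in the Utx-deleted library, so it was higher in every class of the latter.

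Promoter sequence, which the rule did not use, differed between the replication and mitosis lists. RefSeq promoters (build GRCm38.p6, 250 bases before to 50 after the start) were matched by symbol for 34 of 40 replication genes (40 promoters), 38 of 44 mitosis genes (40 promoters) and 9 of 9 rule genes. The CHR element was searched as TTTGAA, the CCAAT box as CCAAT, an E2F site as GCGGGAA and a C/EBP site as TTGCNNAA, each on both strands, and no motif contains another, though 2 CCAAT matches of opposite strands overlap in Ube2c. TTTGAA was in 65% of mitosis promoters (26 of 40), 10% of replication promoters and 17.9% of all 32851 promoters. It was not particular to mitosis genes, being in 47.3% of histone promoters (26 of 55, from 54 of 59 genes). It was also in 40% of azurophil (4 of 10), 33.3% of rule gene and 23.1% of specific granule promoters. CCAAT was in 75% of mitosis, 57.5% of replication and 37.4% of all promoters, and both together in 57.5%, 7.5% and 6.95%. Among histone promoters CCAAT was in 83.6% and both together in 45.5%. GCGGGAA was in 40% of replication promoters (16 of 40), 0 of 40 mitosis promoters and 4.6% of all. TTGCNNAA was in 55.6% of the rule gene promoters (5 of 9), against 7.69% of specific granule promoters (1 of 13) and 20% of azurophil promoters (2 of 10). It was in 23.6% of histone promoters (13 of 55) and 10.8% of all. A match is a run of letters and not a binding site. The 4 promoters below are the most highly expressed gene in the control among those with the motifs, 2 for mitosis and 1 each for replication and the rule genes. Each shows the 250 bases before the start, 5′ to 3′ on the gene's strand, with the matched letters in capitals.
Ube2c, chr2:164769679-164769928, plus strand, CHR and CCAAT in capitals: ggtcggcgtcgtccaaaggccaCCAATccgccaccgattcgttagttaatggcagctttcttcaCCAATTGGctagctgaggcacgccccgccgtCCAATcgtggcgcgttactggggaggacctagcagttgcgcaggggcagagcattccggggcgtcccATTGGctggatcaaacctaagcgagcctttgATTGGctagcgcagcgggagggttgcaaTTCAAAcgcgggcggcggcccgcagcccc
Kif11, chr19:37376132-37376381, plus strand, CHR and CCAAT in capitals: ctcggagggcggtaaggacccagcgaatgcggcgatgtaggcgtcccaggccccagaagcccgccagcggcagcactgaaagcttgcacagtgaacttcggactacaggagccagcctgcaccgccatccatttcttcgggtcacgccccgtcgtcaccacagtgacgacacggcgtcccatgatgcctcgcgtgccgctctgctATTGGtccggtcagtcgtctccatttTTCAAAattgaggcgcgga
Rrm1, chr7:102441445-102441694, plus strand, E2F in capitals: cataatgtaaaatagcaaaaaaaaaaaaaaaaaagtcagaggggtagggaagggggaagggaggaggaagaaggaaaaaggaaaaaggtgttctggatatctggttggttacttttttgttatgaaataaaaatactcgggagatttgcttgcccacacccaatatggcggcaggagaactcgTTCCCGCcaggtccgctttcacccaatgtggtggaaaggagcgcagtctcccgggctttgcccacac
S100a9, chr3:90695722-90695971, minus strand, C/EBP in capitals: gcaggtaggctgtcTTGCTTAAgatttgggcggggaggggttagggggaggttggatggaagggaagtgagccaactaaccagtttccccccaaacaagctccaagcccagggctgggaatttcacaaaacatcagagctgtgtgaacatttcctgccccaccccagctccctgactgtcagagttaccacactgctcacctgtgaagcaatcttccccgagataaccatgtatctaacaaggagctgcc
In Ube2c the CHR letters begin 29 bases before the start and in Kif11 19 bases before it. The nearest CCAAT letters begin 57 and 45 bases before the start. The E2F letters of Rrm1, the large ribonucleotide reductase subunit, begin 67 bases before the start, and the C/EBP letters of S100a9 begin 236 bases before it.

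Away from the cell cycle, the libraries differed at a limited set of genes, more of them lower than higher in the Utx-deleted library. Of 10632 genes whose summed UMIs reached 100, 123 passed 2-fold upward (1.16%) and 265 downward (2.49%). The median over these genes was -0.04 (log2). The hashtags of the control differed 2-fold at 0.219% of genes and those of the Utx-deleted library at 2.1%, 194 of the latter 199 being higher in hashtag 2. In hashtag 1 cells alone 56 genes were 2-fold higher (0.599%) and 255 lower (2.73%), and in hashtag 2 cells alone 131 were higher (1.34%) and 174 lower (1.78%). In Ltf-high cells without Mki67 or Top2a, from the same libraries, 1.24% of 9036 genes were 2-fold higher and 3.47% lower.

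**Figure D2:**
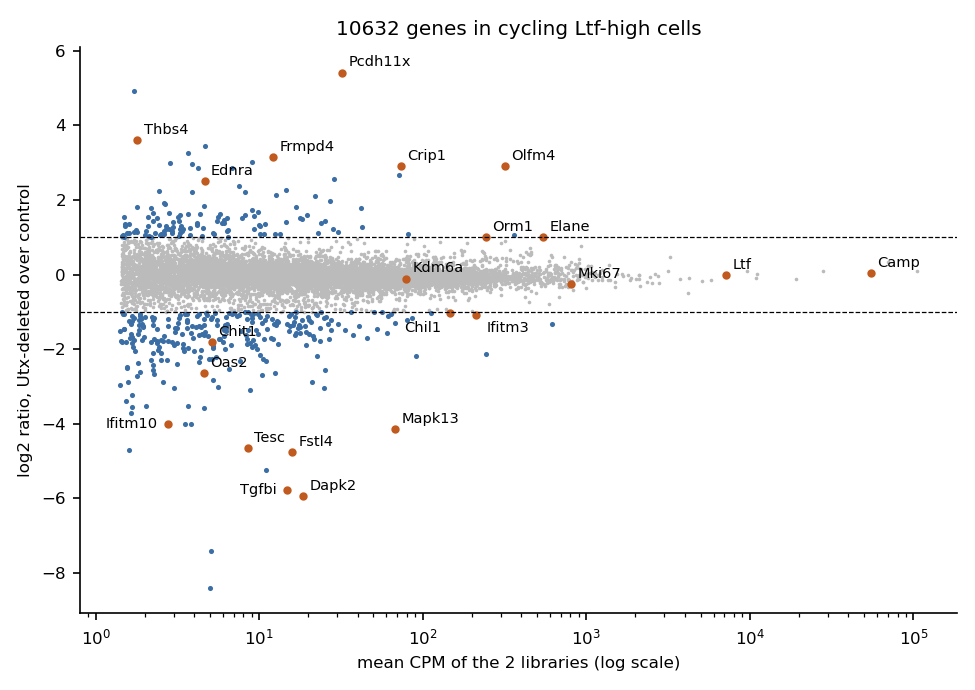
Log2 ratio of Utx-deleted over control CPM (vertical axis) against the mean CPM of the 2 libraries (horizontal axis, log scale) for 10632 genes of cycling Ltf-high cells; blue and orange points are past 2-fold (dashed lines) or named. Dapk2 (-5.94), Tgfbi (-5.76) and Mapk13 (-4.15) lie far below, Pcdh11x (5.41), Crip1 (2.91) and Olfm4 (2.90) far above, and Ltf, Camp and Kdm6a near 0.

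Dapk2, a calmodulin-regulated death-associated kinase of granulocytes (chr9:66158223-66272242, mm10), had 1312 and 19 UMIs, 36.6 and 0.568 CPM. Its hashtag values were 37.3 and 36.0 CPM in the control and 0.592 and 0.550 CPM in the Utx-deleted library, a log2 ratio of -5.94 (-6.74 to -5.36). Dapk2 was seen in 40.3% of control and 0.864% of Utx-deleted cells, against 6.03% and 1.95% of granule-poor cells, whose median depths were 26678.5 and 25750 UMIs. Across the 3 classes of Ltf fraction it was 38.8, 38.6 and 33.04 CPM in the control and 1.66, 0.91 and 0.30 CPM in the Utx-deleted library, and in Ltf-high cells without Mki67 or Top2a 37.9 and 0.624 CPM. The groups did not overlap in any class or hashtag.

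Mapk13, the p38-delta kinase (chr17:28769297-28780233), was the most abundant of the lowest genes. It had 4597 and 241 UMIs, with 128 and 128 CPM in the control hashtags and 6.97 and 7.42 CPM in the Utx-deleted hashtags, and a log2 ratio of -4.15 (-4.34 to -3.97). Mapk13 was seen in 85.1% and 11.5% of cells, against 4.32% and 0.818% of granule-poor cells, and it was 157 and 18.7 CPM in Ltf-high cells without Mki67 or Top2a. In granule-poor cells it was near 0 in both libraries, at 1.67 and 0.335 CPM. Tgfbi, a secreted matrix protein induced by TGF-beta, had 1047 and 17 UMIs (29.2 and 0.508 CPM), with 30.2 and 28.3 CPM in the control hashtags and 0.460 and 0.550 in the Utx-deleted hashtags. Fstl4, a follistatin-like gene, had 1101 and 37 UMIs (log2 ratio -4.76), and Gm11186, which lies within Fstl4 on the opposite strand, had 111 and 3 UMIs, so reads of these 2 may not be separable. Tesc, a calcium-binding protein, had 589 and 21 UMIs (-4.64). Ifitm10 had 189 and 10 UMIs (-4.01) and Pde10a, a cyclic nucleotide phosphodiesterase, 239 and 13 (-3.998). Each of these was lower in both Utx-deleted hashtags than in both control hashtags.

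Among the highest genes, Crip1 was seen in most cells of the Utx-deleted library and the others in 4.90% to 39.6% of them, the lowest being Gm15581. Crip1, a small LIM-domain protein, had 615 and 4322 UMIs (17.1 and 129.3 CPM). Its hashtag values were 16.3 and 17.996 CPM in the control and 136 and 123 CPM in the Utx-deleted library, a log2 ratio of 2.91. It was seen in 15.8% and 71.1% of cells and in 80.1% and 85.4% of granule-poor cells, and it differed less in granule-poor cells, at 121 and 153 CPM. Across the Ltf fraction classes Crip1 was 6.44, 15.98 and 22.5 CPM in the control and 83.8, 117 and 139 CPM in the Utx-deleted library. Astn2, an astrotactin, had 695 and 4117 UMIs (19.4 and 123 CPM, log2 ratio 2.67) and was seen in 8.14% and 39.6% of cells, against 2.28% and 3.59% of granule-poor cells. Pcdh11x, a protocadherin (chrX:120290259-120910619), had 52 and 2099 UMIs, a log2 ratio of 5.41 (5.04 to 5.86). Its hashtag values were 2.15 and 0.806 CPM in the control and 88.7 and 41.2 CPM in the Utx-deleted library. Pcdh11x was seen in 0.599% and 11.2% of cells, against 0.853% and 2.08% of granule-poor cells.

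The other genes at the top were Thbs4, a thrombospondin, with 9 and 112 UMIs (log2 ratio 3.60), Frmpd4 with 88 and 735 (3.15), Gm15581 with 70 and 538 (3.03), Dcbld1 with 31 and 231 (2.96) and Ednra, an endothelin receptor, with 49 and 265 (2.51). All 9 control UMIs of Thbs4 were in hashtag 2, 33.3% of them in 1 barcode. In hashtags 1 and 2 the log2 ratios were 5.76 and 2.76 for Thbs4, 2.63 and 3.61 for Frmpd4 and 3.31 and 1.99 for Ednra. 1700006J14Rik had 298 and 1648 UMIs (2.56; 1.61 and 3.08 in hashtags 1 and 2) and overlaps Hmga2, a chromatin protein of progenitors, which had 169 and 502 (1.67), so their reads may be shared. Gm15581 was higher still in granule-poor cells, at 26.9 and 157 CPM, and it was seen in 0.949% and 4.90% of cycling Ltf-high cells. A pair of genes outside the naming rule was chosen after their values were seen. 3830403N18Rik had 359 and 0 UMIs, but 353 of the control UMIs were in hashtag 2 and 6 in hashtag 1. Prg2, an eosinophil granule protein, had 751 of its 771 control UMIs in 1 barcode.

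**Figure D3:**
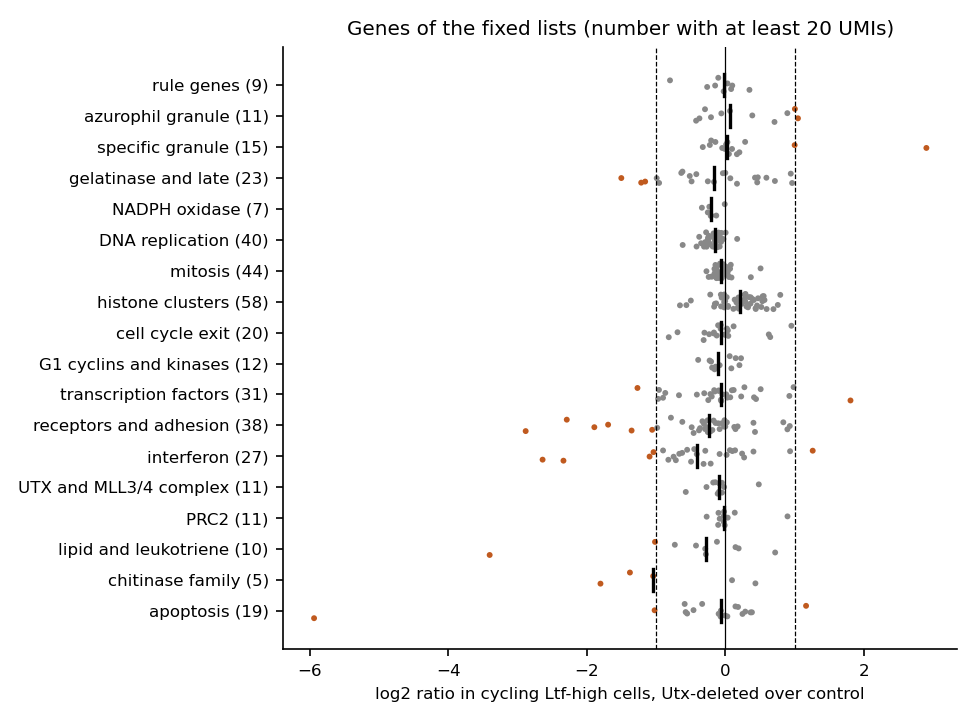
Log2 ratio of Utx-deleted over control (horizontal axis) of each gene with at least 20 UMIs in 18 gene lists (rows, gene number in brackets); short bars are list medians, dashed lines 2-fold, orange points genes past it, including some under the 100 UMIs needed to be counted. Medians lie near 0 for most lists, while the chitinase family and interferon genes have the lowest, at -1.04 and -0.41.

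Of 15 specific granule genes, 2 were at least 2-fold higher and none lower, beside 1.16% higher and 2.49% lower over all tested genes, with a median of 0.03. Orm1, an acute-phase protein stored in granules, stood at 163 and 326 CPM (log2 ratio 1.001, 0.975 in hashtag 1 alone), and Olfm4, described below, at 74.8 and 560 CPM. Ltf at 7237 and 7121 CPM, Camp at 54603 and 55820, Ngp at 27108 and 28736 and Lcn2 at 11269 and 10505 are rule genes, whose levels the selection of cells bears on and which support nothing here. Of the 11 azurophil genes tested, Elane (362 and 726 CPM, log2 ratio 1.005) and Ctsg (1.05) were 2-fold higher and none lower, beside 1.16% higher and 2.49% lower over all tested genes, with a median of 0.07. In hashtag 1 alone neither reached 2-fold, at 0.72 and 0.87. The hashtag medians of the azurophil genes were -0.06 and 0.15.

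For some azurophil genes most UMIs sat in few barcodes. Cycling Ltf-high cells with a granule share under 15% numbered 104 and 115, with median depths of 33496.5 and 33531 UMIs. They held 62.3% and 78.4% of Elane, 83.3% and 80.2% of Mpo and 83.3% and 82.1% of Ctsg UMIs, but 4.88% and 5.02% of Serpinb1a, the gene of the list with the most UMIs, 17.99% and 44.4% of Ms4a3, 3.46% and 4.11% of Ltf and 3.93% and 4.40% of Mki67 UMIs. Without them Elane was 150 and 176 CPM (log2 ratio 0.24), Mpo, myeloperoxidase, 41.0 and 92.3, Ctsg, cathepsin G, 43.3 and 98.7 (1.19) and Prtn3, proteinase 3, 142 and 154 CPM. The difference in Elane was thus smaller without these barcodes, while that in Ctsg was not. Markers of several other lineages were higher in the same barcodes. The summed level of 12 monocyte markers, all detected in the control and all but Fcgr1 in the Utx-deleted library, was 550 and 1117 CPM in them and 19.7 and 39.5 CPM in the rest. For 14 HSC/MPP markers it was 672 and 332 against 35.5 and 37.2 CPM, for 12 erythroid markers 338 and 120 against 40.9 and 28.9 CPM, and for 12 megakaryocyte markers 238 and 185 against 5.60 and 8.38 CPM, with Gp6 at 0 in both libraries. Macrophage markers went the other way, at 75.2 and 64.8 against 140.01 and 168 CPM, as did eosinophil markers, at 29.8 and 11.9 against 90.4 and 33.2 CPM. Their part in the azurophil difference was not tested. Scrublet's automatic threshold marked 0.0134% and 0% of barcodes and did not work, and its top 6% of scores held 188 and 155 of the cycling Ltf-high cells.

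Late genes lay on both sides of 0. Of 20 gelatinase and late genes tested, none was 2-fold higher and 3 were lower, beside 1.16% higher and 2.49% lower over all tested genes, with a median of -0.16: Cxcr2, the chemokine receptor for release from marrow, at 34.6 and 15.5 CPM (-1.16), Clec4e, a C-type lectin, at 15.2 and 6.52 CPM (-1.21), and Ifitm1 at 9.28 and 3.26 CPM (-1.50). Cxcr2 was -0.74 with barcodes of both hashtags kept and -0.90 in hashtag 2 alone, and Ifitm1 was -0.53 in hashtag 2 alone, so both lost the 2-fold call there. For Ifitm1, 1 barcode held 10.5% of the control UMIs. Padi4, which citrullinates histones, was at 143 and 73.9 CPM (-0.96) and did not reach 2-fold. Retnlg at 139 and 210 CPM, Wfdc21 at 2738 and 3791 CPM, Mmp8, neutrophil collagenase, at 65.8 and 88.6 CPM and Fpr2, a formyl peptide receptor, at 59.9 and 117 CPM lay above 0. In Ltf-high cells without Mki67 or Top2a Cxcr2 was 233 and 219 CPM, a log2 ratio of -0.09, so its lower level was not seen there. All 7 NADPH oxidase genes lay below 0, with a median of -0.21 and none past 2-fold.

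Of 37 surface receptors tested, 6 were at least 2-fold lower and none higher, beside 2.49% and 1.16% of all tested genes, with a median of -0.23. Itgal, the integrin alpha chain of LFA-1, was at 69.3 and 21.4 CPM (log2 ratio -1.69), with 68.7 and 69.7 CPM in the control hashtags and 19.8 and 22.9 CPM in the Utx-deleted hashtags. It was lower in the Utx-deleted library also in Ltf-high cells without Mki67 or Top2a (160 and 60.9 CPM) and in granule-poor cells (36.9 and 9.08 CPM). Csf2rb2, a beta chain of the IL-3 receptor, was at 4.599 and 0.598 CPM (-2.88), Siglecf at 3.62 and 0.718 (-2.29), Fcgr4, an activating Fc receptor, at 18.1 and 7.09 (-1.35), Il1r2, the decoy IL-1 receptor, at 30.2 and 14.5 (-1.06) and Flt3 at 4.74 and 1.26 (-1.89). Of the Flt3 UMIs, 81.2% and 66.7% were in the barcodes with a granule share under 15%; without these Flt3 was at 0.980 and 0.471 CPM, and without the top Scrublet scores its log2 ratio was -0.93. Il1r2 was -0.95 with barcodes of both hashtags kept. Beside Siglecf, the summed level of 10 eosinophil markers was lower too, at 85.0 and 30.8 CPM. Of the control sum, 28.9% was in 1 barcode, and the part of such barcodes in the Siglecf difference was not tested. The G-CSF receptor gene Csf3r, which drives granulopoiesis, was at 131 and 131 CPM. Ly6g was the opposite case, at 238 and 198 CPM in the control hashtags and 428 and 355 CPM in the Utx-deleted hashtags (log2 ratio 0.84).

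Interferon-stimulated genes had a median of -0.41, with hashtag medians of -0.10 and -0.52. Of 18 tested, Oas2 (7.97 and 1.26 CPM, -2.64) and Oas3 (7.22 and 1.41 CPM, -2.34), sensors of double-stranded RNA, and Ifitm3 (288 and 135 CPM, -1.09), a membrane restriction factor, were 2-fold lower, and Ifi209 was 2-fold higher (1.26), beside 2.49% lower and 1.16% higher over all tested genes. Of the Ifi209 UMIs, 80% and 80.6% were in the barcodes with a granule share under 15%, and the other cells held 16 and 35 UMIs of it. Over 16 alternatives its log2 ratio went down to 0.98, under 2-fold. Ifitm3 was -0.88 in hashtag 2 alone. In the chitinase family 2 of 4 were 2-fold lower, beside 2.49% of all tested genes: Chit1, chitotriosidase, with 287 and 76 UMIs (-1.80) and Chil1 at 197 and 95.8 CPM (-1.04). In hashtag 1 alone both missed 2-fold, at -0.90 and -0.94. Chil3, an abundant chitinase-like protein of myeloid cells, was at 9239 and 9884 CPM.

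Of 29 transcription factors tested, Rara, the retinoic acid receptor, was 2-fold lower (5.16 and 2.12 CPM, -1.27) and none was higher, beside 1.16% higher and 2.49% lower over all tested genes, with a median of -0.06. Rara missed 2-fold with barcodes of both hashtags kept (-0.93) and in hashtag 2 alone (-0.89). Irf8, a monocyte and dendritic factor, was just under 2-fold at 13.3 and 26.4 CPM (0.99), with 85.4% and 85.8% of its UMIs in the barcodes with a granule share under 15%. Cebpe was at 476 and 518 CPM (0.12), Spi1 (PU.1) at 389 and 365 CPM, Gfi1, a repressor needed for granulopoiesis, at 50.3 and 68.4 CPM (0.44) and Cebpb, the factor of emergency granulopoiesis, at 232 and 146 CPM (-0.67). Of 15 apoptosis genes, Bbc3 (PUMA) was 2-fold higher (1.81 and 4.10 CPM, 1.17; 0.89 in hashtag 1 alone), and Dapk2 is the lower one, beside the same 1.16% and 2.49%. Of 17 cell cycle exit genes none passed 2-fold, with Cdkn2d at 307 and 247 CPM and Btg2, an antiproliferative gene, at 53.5 and 33.2 CPM. Of 8 lipid and leukotriene genes, beside the same shares, Ptges, a prostaglandin E synthase, was 2-fold lower (32.1 and 15.9 CPM, -1.01), but not with barcodes of both hashtags kept (-0.97) or in hashtag 2 alone (-0.82). Of 10 genes of the UTX and MLL3/4 complexes none passed 2-fold. Kdm6b, the other H3K27 demethylase, was at 56.0 and 57.2 CPM in the control hashtags and 37.3 and 38.8 CPM in the Utx-deleted hashtags (-0.57). Kmt2c and Kmt2d, which encode MLL3 and MLL4, were at 182 and 176 CPM and at 51.2 and 45.4 CPM. Of 11 polycomb repressive complex 2 genes, none passed 2-fold: Ezh2, the methyltransferase, was at 211 and 216 CPM and Phf19, an accessory subunit, at 5.16 and 9.63 CPM (0.90).

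Some of the genes past 2-fold lie together. Of the 388 genes past 2-fold, 74 (19.1%) had a neighbour within 100 kb that was past 2-fold in the same direction, and 8.44% of all tested genes had a neighbour past 2-fold. The second share counts a neighbour past 2-fold in either direction, so the 2 are not strictly comparable. The 74 include overlapping genes, such as Fstl4 and Gm11186, and genes with most UMIs in 1 barcode, such as Prg2 (97.4%). The genes named next outside the fixed lists were chosen after their values were seen. On chromosome 7 (140954837 to 141017924, mm10), Ifitm2 was at 396 and 91.1 CPM (-2.12), Ifitm1 at 9.28 and 3.26 (-1.50), Ifitm3 at 288 and 135 (-1.09) and Ifitm6 at 880 and 350 CPM (-1.33). These belong to 1 gene family, so reads of similar stretches may be split between them. On chromosome 1, Il1r2 (-1.06) lies beside Il1r1 (-1.95) and Map4k4 (-1.14). On chromosome 11, P2rx1, an ATP-gated channel, had 308 and 23 UMIs (-3.58) and its neighbour Camkk1 111 and 8 (-3.54).

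Olfm4, a granule protein made by only a part of all neutrophils (chr14:79984081-80023139), was the gene that varied most by the variance of its Pearson residuals among cycling Ltf-high cells of the control and, with the cells under 15% granule share left out, of both libraries. Those cells are left out here, which leaves 1898 and 1621. Olfm4 was nearly all or none: 1801 and 1185 cells held 0 UMIs, 25 and 116 held 1 to 4, 2 and 3 held 5 to 16, and 70 and 317 held 17 or more. The share with at least 5 UMIs was 3.79% (2.98 to 4.75) in the control and 19.7% (17.8 to 21.8) in the Utx-deleted library. The hashtags were alike in the control, at 3.90% and 3.70%, and far apart in the Utx-deleted library, at 33.3% (30.01 to 36.7) and 6.89% (5.26 to 8.84). Both Utx-deleted hashtags lay above both control hashtags, and the gap between the 2 Utx-deleted hashtags was larger than that between the lower of them and the control. The median Olfm4 count of the cells with at least 5 UMIs was 33 and 51.

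**Figure D4:**
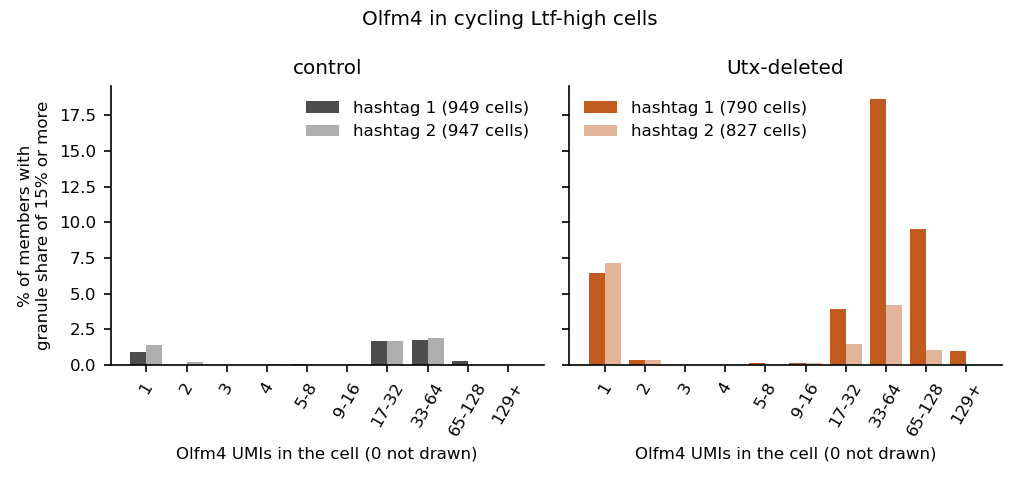
Percent of the cycling Ltf-high cells of each hashtag with a granule share of at least 15% (vertical axis) by Olfm4 UMIs in the cell (horizontal axis; cells with 0 not drawn). Few cells lie between 5 and 16 UMIs, and hashtag 1 of the Utx-deleted library has the most cells at 17 or more.

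The background of Olfm4 was low. At least 5 UMIs were held by 0 of 1758 control granule-poor cells, which allows a share of up to 0.171% (3 counts of the total), and by 0.0629% of 1589 Utx-deleted granule-poor cells, at median depths of 26678.5 and 25750 UMIs. At least 1 UMI was held by 1.82% and 11.1% of them, so the cells with 1 to 4 UMIs are read as background. In Ltf-high cells without Mki67 or Top2a the share with at least 5 UMIs was 2.87% (74 of 2576) and 16.4% (499 of 3035). By hashtag it was 2.41% and 3.26% in the control and 28.97% and 3.73% in the Utx-deleted library. The intervals of control hashtag 2 (2.41 to 4.32) and Utx-deleted hashtag 2 (2.83 to 4.81) overlapped in these cells. Within the Utx-deleted cycling cells, those with at least 5 Olfm4 UMIs differed from the rest 2-fold at 25 of 8895 genes (0.281%), 10 higher and 15 lower. The 10 include Olfm4 itself, which defines the groups. This contrast pools hashtags, and 263 of its 320 Olfm4 cells were of hashtag 1. Ltf was 7911 against 7615 CPM, Camp 59159 against 61389 CPM and Mki67 750 against 804 CPM, while Mmp8 was 136 against 57.3 CPM and Retnlg 281 against 152 CPM. Within hashtags 1 and 2 the log2 ratios were 0.98 and 2.14 for Mmp8 and 0.54 and 1.59 for Retnlg, but 2.17 and -0.997 for Elane, which changed sign. Pcdh11x with at least 2 UMIs was in 5 control cells (0.263%) and 153 Utx-deleted cells (9.44%), at 12.03% and 7.01% in the Utx-deleted hashtags. Of these 153 cells, 57 also held at least 5 Olfm4 UMIs, which is 37.3% of the Pcdh11x cells and 17.8% of the Olfm4 cells. In hashtag 1 this was 48 of 95 Pcdh11x cells (50.5%), against 33.3% of all cells there, and in hashtag 2 it was 9 of 58 (15.5%), against 6.89%. Pcdh11x was at 142 CPM in the cells with at least 5 Olfm4 UMIs and 48.3 CPM in the rest, a log2 ratio of 1.62 within hashtag 1 and 0.10 within hashtag 2.

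Antibody tags gave a readout that the rule did not use. Gr1, an antibody to Ly6G that also binds Ly6C, had a median of 515.5 UMIs per cell in the control (quartiles 243 to 1066) and 955 in the Utx-deleted library (437 to 1922). Its hashtag medians were 537 and 498 in the control and 973 and 944 in the Utx-deleted library, so the hashtag medians of the libraries did not overlap, while the quartiles of their cells did. As a share of the UMIs of all 13 tags other than hashtags it was 34.6% and 54.1%, at total medians of 1999 and 1960.5 tag UMIs per cell. The difference was smaller in Ltf-high cells without Mki67 or Top2a (1526 and 1680) and in granule-poor cells (24 and 25). In hashtag 2 alone it turned there, at 1555.5 and 1492.5 and at 26 and 24, while centred log-ratios were higher by 0.70 and 0.57 over both hashtags. Of the genes whose proteins the antibody binds, Ly6g was at 217 and 388 CPM and Ly6c2 at 756 and 601 CPM.

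CD48, a SLAM family protein of progenitors, went the other way. Its median was 179 UMIs per cell in the control and 77 in the Utx-deleted library, with 183.5 and 175 in the control hashtags and 77 and 78 in the Utx-deleted hashtags. In Ltf-high cells without Mki67 or Top2a it was 68 and 29 and in granule-poor cells 828 and 629. On centred log-ratios its difference between libraries was -0.65 in the cycling Ltf-high cells but 0.065 in granule-poor cells, where the tag totals also differed (medians 1489.5 and 1241). The Cd48 transcript was at 16.1 and 16.7 CPM in the cycling Ltf-high cells. The tag for CD16 and CD32, Fc receptors of neutrophils, had medians of 656.5 and 412, with Fcgr3 at 79.9 and 67.2 CPM and Fcgr2b at 59.4 and 49.8 CPM. In granule-poor cells this tag was higher in the Utx-deleted library, at 161.5 and 238. CD11b, the integrin encoded by Itgam, had 400 and 336.5, with Itgam at 634 and 557 CPM. On centred log-ratios CD11b was higher in the Utx-deleted library, by 0.32 on the log2 scale. CD117, the Kit protein, had 36 and 24 in cycling Ltf-high cells, 164 and 162 in granule-poor cells and 13 and 8 in the Ltf-high cells without Mki67 or Top2a. On centred log-ratios its difference between libraries in the cycling Ltf-high cells was 0.0041. Sca1 had medians of 7 and 3 and B220 of 9 and 5, and both were lower in granule-poor cells too, Sca1 at 8 and 4 and B220 at 14 and 10. On centred log-ratios the differences were smaller, at -0.38 for Sca1 and -0.17 for B220 in the cycling Ltf-high cells. In granule-poor cells they were -0.41 and 0.030. CD34 had 3 and 2, but its share of tag UMIs was lower in hashtag 1 (0.228% and 0.144%) and higher in hashtag 2 (0.2498% and 0.317%). With the cells under 15% granule share left out, the CD34 share was lower in both hashtags. It was then 0.170% and 0.105% in hashtag 1 and 0.178% and 0.152% in hashtag 2. Tag shares sum to 100%, so a higher Gr1 share lowers the others. The medians do not have this limit, but a difference in tag yield between the libraries would enter them. The low-count tag CD127 had medians of 4 and 2 in cycling Ltf-high cells and in granule-poor cells. CD150 had 2 and 0 in the former and 3 and 1 in the latter, while CD201 had 1 and 1 in both. On centred log-ratios CD150 was -0.61 in cycling Ltf-high cells, beside -0.65 for CD48. The part of tag yield in these medians was not tested.

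**Figure D5:**
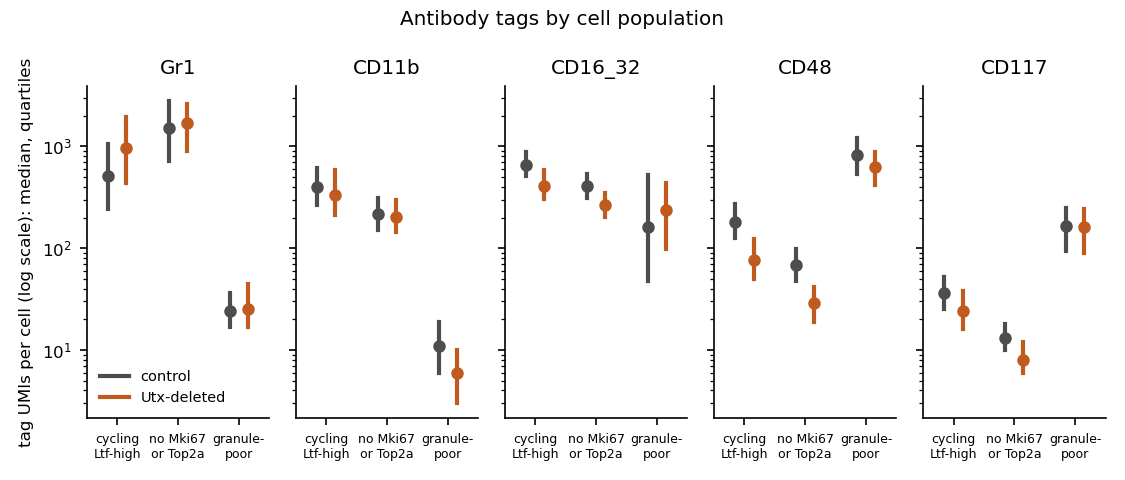
Median (points) and quartiles (bars) of UMIs per cell on a log scale for 5 antibody tags in cycling Ltf-high cells, Ltf-high cells without Mki67 or Top2a, and granule-poor cells, control and Utx-deleted. In cycling Ltf-high cells Gr1 is higher (515.5 and 955) and CD48 lower (179 and 77) in the Utx-deleted library, and CD117 lies far below its level in granule-poor cells.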

How the data were processed

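UMI counts per gene and antibody tag were deposited by the authors as 1 matrix per library, 32285 genes and 15 tags, with Cell Ranger 7.1.0 named as their source per the file headers. Per the submitters' processing notes the build was mm10. The counts are not normalized. The aligner settings and the rule for calling cells are not given in the sources used here.

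Barcodes with at least 500 genes and under 10% mitochondrial UMIs were kept (349 and 214 failed). A barcode with at least 100 UMIs of each hashtag within 5-fold was dropped. UMIs were summed over the cycling Ltf-high cells (35874394 control and 33434694 Utx-deleted) and divided by the total. Ratios are log2 values, after adding 1 UMI to both sums. Counts past 2-fold are over genes whose 2 sums reached 100 UMIs together, and list medians over those that reached 20. Intervals are exact (Clopper-Pearson for shares, conditional binomial for ratios) at 95% and cover counting error only, since PCR and cell sampling add more. Named genes were the 10 highest and 10 lowest ratios past 2-fold with the same sign in both hashtags, at least 20 UMIs in each and no barcode with over 10% of the UMIs, in addition to the rule genes, Kdm6a and its relatives and up to 6 genes per list. Some genes selected by this rule are not reported here. The members and the gene lists were chosen with earlier results of these data known. Gene positions come from GENCODE M21 on GRCm38, which held 99.6% of the gene identifiers. Tested on simulated data for the comparison of the libraries, with 200 of 10632 genes changed 4-fold, the counting recovered 100% of them and called 0 of 10408 unchanged genes. The simulated sums held counting error only, without variation among cells, barcodes or suspensions. They therefore check the arithmetic and do not give the rate of false 2-fold calls in these data. Between the hashtags of the Utx-deleted library 2.1% of genes passed 2-fold. Alternatives covered the cell filter, doublets, each rule threshold, thinning, each hashtag alone, TMM scaling with edgeR 4.0.16 (R 4.3.3), other totals and weights, UMI minima and the fold. Python 3.11.15, numpy 2.4.6, pandas 2.3.3, scipy 1.17.1, scanpy 1.11.5 (Scrublet) and matplotlib 3.10.9 were used.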

Additional observations from a re-analysis of the deposited data

How the results depend on the processing

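No paired analysis was possible because the labels carry no replicate numbers and each group is 1 library. The 20 genes that the naming rule selects kept their sign and stayed past 2-fold in all 320 values over 16 alternatives. This was largely set by the choice of genes. The rule took the most extreme ratios and already asked for the same sign in each hashtag. Each hashtag alone is among the alternatives, and the others reuse mostly the same cells or the same sums. Of 324 list medians, 313 kept their sign, and the replication, G1 cyclin, polycomb, azurophil and rule gene lists crossed 0 at least once. With barcodes of both hashtags kept, the difference in the share of kept cells was -0.973 percentage points (30.2% and 29.2%) against -3.30, and in the share of Ltf-high cells -3.18 against -5.79. The latter was -9.86 in hashtag 1 alone and -2.37 in hashtag 2 alone (95% interval -4.88 to 0.146). Genes at least 2-fold higher numbered 123, and 56 in hashtag 1 alone, 355 from 20 UMIs, 42 from 500 UMIs, 1934 with any UMI and 383 at 1.5-fold. Genes 2-fold lower numbered 265, and 174 in hashtag 2 alone, 557 from 20 UMIs, 111 from 500 UMIs, 1633 with any UMI and 588 at 1.5-fold. The higher genes were 31.7% of all calls, 41.5% without the top Scrublet scores, 18.01% in hashtag 1 alone, 42.95% in hashtag 2 alone and 54.2% with any UMI. Of the fixed lists, 6 genes were 2-fold higher, against 10 with both-hashtag barcodes kept, 10 without the top Scrublet scores, 2 in hashtag 1 alone and 10 in hashtag 2 alone. The Gr1 tag's log2 ratio of shares, 0.64, was 0.89 on medians and 1.46 on centred log-ratios. Among the genes of the fixed lists past 2-fold, Rara (-0.93), Il1r2 (-0.95), Cxcr2 (-0.74) and Ptges (-0.97) did not reach it with both-hashtag barcodes kept. In hashtag 1 alone Orm1 (0.975), Bbc3 (0.89), Elane (0.72), Ctsg (0.87), Chit1 (-0.90) and Chil1 (-0.94) did not, and in hashtag 2 alone Rara (-0.89), Cxcr2 (-0.90), Ifitm1 (-0.53), Ifitm3 (-0.88) and Ptges (-0.82) did not. Orm1, Elane, Ctsg, Ptges and Chil1 lay close to 2-fold and crossed it under other settings too. Ifi209 went down to 0.98 over the alternatives. On centred log-ratios the CD11b tag, -0.18 as a share, turned to 0.32. Cd74, 2.22 in the main setting, was -0.68 in hashtag 1 alone. The setting of at least 15% granule share and the one without shared barcodes were chosen after seeing the data. Elane was 0.24 in the first. Fewer cells or genes enter the hashtag and UMI settings, and the cause of the other changes was not tested. Depth limits genes under 100 UMIs, where counting error alone can give 2-fold.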
